A study of Mus musculus with 4 samples.

Results

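The interferon-inducible GTPases examined here are 3 guanylate-binding proteins (Gbp2, Gbp3 and Gbp7) and 7 immunity-related GTPases (Igtp, Irgm1, Irgm2, Ifi47, Tgtp1, Tgtp2 and Iigp1). They were taken by gene name, as 10 of the 52636 genes of an RNA sequencing table of mouse Th17 cells, which are CD4+ T helper cells that make interleukin 17. All 10 were listed, and each had reads in every library. There were 4 libraries, 2 from cells labelled PP2A WT and 2 from cells labelled PP2A cKO, called WT and cKO below. PP2A is a serine/threonine phosphatase, and the study asked whether Th17 differentiation requires it. The labels name neither the deleted subunit nor the Cre driver, and give no age.

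Both genotypes shared every other condition. Naive C57BL/6 cells were cultured with irradiated antigen presenting cells, 3 for each naive cell. They received anti-CD3 and anti-CD28 at 2 µg/ml each, TGF-β1 at 2 ng/ml and IL-6 at 20 ng/ml for 2 days. Antibodies that neutralize IL-4 and IFN-γ were present at 10 µg/ml each, so the cells of both genotypes were polarized under IFN-γ blockade. PMA at 50 ng/ml and ionomycin at 500 ng/ml were then given for 4 h. The study calls the libraries of a genotype biological replicates, without saying how mice or cultures were kept apart, and each p-value reflects how far these libraries scatter.

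Interferons act through receptor-bound Janus kinases that phosphorylate STAT proteins. IFN-γ acts mainly through gamma-activated sites in its target genes, and type I interferons mainly through interferon-stimulated response elements, bound by a complex that holds STAT2 and IRF9. Guanylate-binding proteins and immunity-related GTPases are among the most strongly induced targets of IFN-γ in mouse cells and are known for attacking the vacuoles that hold intracellular pathogens. Members of the GKS class, named for a lysine in their nucleotide-binding site, load onto such vacuoles, while the GMS class, with a methionine there, regulates them and protects the cell's own membranes.

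All 10 genes had both cKO libraries above both WT libraries, and the sum of their FPKM was about 2-fold higher. FPKM scales fragments by gene length and library size, which allows levels of different genes to be compared. The sum was 38.4 and 41.6 FPKM in WT and 82.6 and 80.2 FPKM in cKO, or 40.0 ± 2.29 against 81.4 ± 1.75 (SD, n = 2 each), a ratio of 2.04. Of all 21807 genes above 0 in a library, 21.4% had both cKO libraries above both WT libraries, and of the 10562 genes tested, 27.2% did. The test, limma on log2(FPKM + 1) wherever the mean reached 1 FPKM, took in 7 of the 10 genes. Igtp and Irgm1 rose and none fell, where 0.814% of tested genes were called higher. Gbp3 and Tgtp2 had WT means under 1 FPKM and entered the test only through their cKO level. With 2 libraries against 2, the smallest two-sided p that permuting labels allows for 1 gene is 0.333. In bulk RNA, a change in the number of cells that express a gene and a change in RNA per cell cannot be told apart.

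**Figure D1:**
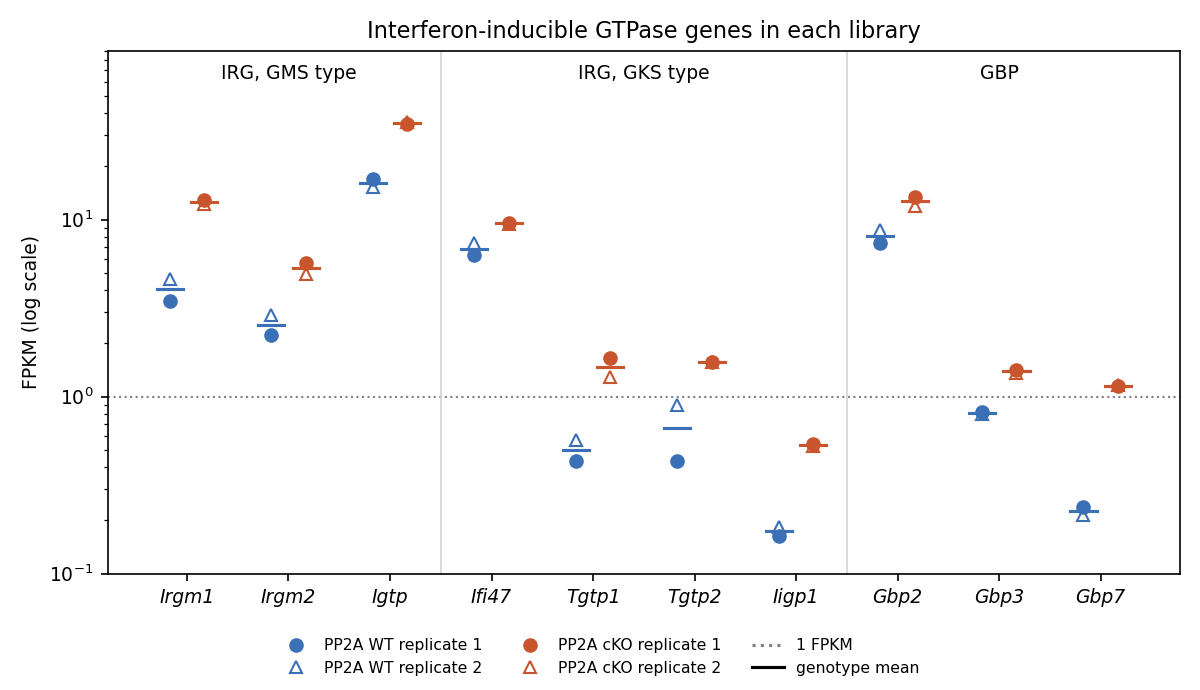
FPKM (y axis, log scale) of each interferon-inducible GTPase gene (x axis) in the 2 WT and the 2 cKO libraries, 1 point per library, with a line at the mean of each genotype. For every gene both cKO points lie above both WT points, with the widest gap at Gbp7.

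The GMS class held most of the GTPase RNA. Igtp, Irgm1 and Irgm2 together had 22.7 and 22.8 FPKM in WT and 53.4 and 52.8 FPKM in cKO, a ratio of 2.33. Igtp, also called Irgm3, had the highest level of the 10 genes in both genotypes, with 36.8% to 44.3% of the summed level in each library. Igtp measured 16.96 and 15.3 FPKM in WT and 34.9 and 35.5 FPKM in cKO, from 671, 592, 1432 and 1394 reads. The cKO libraries lay close together and at least 2.06-fold above the higher WT library. Igtp rose from 16.1 ± 1.16 to 35.2 ± 0.489 FPKM (SD, n = 2), with a log2 fold change of 1.08 ± 0.10 (SE; limma, adjusted p = 0.0273). Its call was lost without WT replicate 1 (limma, adjusted p = 0.0736) or WT replicate 2 (adjusted p = 0.140).

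Irgm1, a regulator of the GKS class and of autophagy, measured 3.47 and 4.63 FPKM in WT and 12.8 and 12.3 FPKM in cKO. WT replicate 2 was the higher of its WT libraries, and the genotypes did not overlap. Irgm1 rose from 4.05 ± 0.818 to 12.6 ± 0.358 FPKM (SD, n = 2), a ratio of 3.10 and a log2 fold change of 1.44 ± 0.13 (limma, adjusted p = 0.0280). This call held without each library in turn (limma, adjusted p from 0.0141 to 0.0485). By log2 fold change Irgm1 ranked 33 and Igtp 98 among the 10562 tested genes. Irgm1 stood at percentile 29.2 of the tested genes by WT level and at percentile 60.05 by cKO level, while Igtp stood at 66.2 and 83.5.

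Irgm2, the other GMS protein, measured 2.23 and 2.88 FPKM in WT and 5.68 and 4.92 FPKM in cKO. Its lower cKO library was 1.71-fold above its higher WT library. Its log2 fold change of 0.83 ± 0.13 did not pass (limma, adjusted p = 0.0617). It did pass by voom, a limma variant for counts, run on the reads recovered from FPKM (adjusted p = 0.0226), where 2.52% of tested genes were called higher. It also passed after correction for GC content (limma, adjusted p = 0.0369), where 2.40% of tested genes were called higher. Among protein-coding genes alone it passed as well (limma, adjusted p = 0.0243), where 2.81% were called higher. With each library left out in turn, its log2 fold change ran from 0.697 to 0.961. It did not pass by voom without a filter (adjusted p = 0.0569) or after GC correction with a replicate block (limma, adjusted p = 0.0554). Counting every alternative that included Irgm2, it did not pass in 14 of 18.

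The GKS class, the effectors of vacuole attack, was at lower levels. Its 4 genes summed to 7.31 and 8.99 FPKM in WT and 13.3 and 12.9 FPKM in cKO, a ratio of 1.61, of which Ifi47 (Irgd) made up most. Ifi47 measured 6.28 and 7.34 FPKM in WT and 9.53 and 9.49 FPKM in cKO. Its cKO libraries were nearly equal, and its gap between genotypes was the narrowest of the 10 genes at 1.29-fold. The log2 fold change of 0.43 ± 0.10 did not pass (limma, adjusted p = 0.112).

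Tgtp1 and Tgtp2 are neighbouring copies that encode near-identical forms of Irgb6, an early loader onto pathogen vacuoles. Tgtp1 measured 0.431 and 0.572 FPKM in WT and 1.66 and 1.29 FPKM in cKO, from 27, 35, 108 and 80 reads. Tgtp2 measured 0.435 and 0.891 FPKM in WT and 1.57 and 1.56 FPKM in cKO, from 25, 50, 94 and 89 reads. The genotypes did not overlap for either copy, although the WT libraries of Tgtp2 differed 2.05-fold. The log2 fold change of Tgtp2 was 0.64 ± 0.17 (limma, adjusted p = 0.133), and Tgtp1, with a mean under 1 FPKM, was not tested. Of all 50-base stretches in the transcripts of Tgtp1, 79.4% also occur in Tgtp2, and 85.8% of those of Tgtp2 occur in Tgtp1, so how their reads were divided is uncertain. Summed, the copies had 52 and 85 reads in WT and 202 and 169 in cKO, with a log2 fold change of 0.91 ± 0.17 (limma, adjusted p = 0.0735).

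Iigp1 (Irga6) had the lowest level of the 10 genes in both genotypes. It lies apart from the others on chromosome 18 (60376029 to 60392627, GRCm38). It measured 0.164 and 0.184 FPKM in WT and 0.536 and 0.529 FPKM in cKO, from 10, 11, 34 and 32 reads. The ratio of its means was 3.06 and the genotypes did not overlap, but the counts were small. By voom on recovered reads of all 21807 genes with a read, an analysis chosen after seeing the data, its log2 fold change was 1.53 ± 0.34 (adjusted p = 0.1005).

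The guanylate-binding proteins coat pathogen vacuoles and bacteria and promote inflammasome activation. Their 3 genes summed to 8.40 and 9.80 FPKM in WT and 16.0 and 14.5 FPKM in cKO, a ratio of 1.67. Gbp2, the most abundant of the 3, measured 7.35 and 8.78 FPKM in WT and 13.4 and 11.99 FPKM in cKO. Replicates of each genotype were close and the genotypes did not overlap, but the log2 fold change of 0.60 ± 0.12 did not pass (limma, adjusted p = 0.0812). Gbp2 passed among protein-coding genes alone (limma, adjusted p = 0.0433), where 2.81% of tested genes were called higher, but it did not pass in 18 of 20 alternatives. With each library left out in turn, its log2 fold change ran from 0.484 to 0.711.

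Gbp3 measured 0.814 and 0.802 FPKM in WT and 1.42 and 1.36 FPKM in cKO, from 52, 50, 94 and 86 reads. Replicates of each genotype were close and the genotypes did not overlap, but the log2 fold change of 0.40 ± 0.12 did not pass (limma, adjusted p = 0.158). Gbp7 measured 0.237 and 0.214 FPKM in WT and 1.15 and 1.16 FPKM in cKO, from 26, 23, 131 and 126 reads. The ratio of its means, 5.11, was the highest of the 10 genes, and its lower cKO library was 4.85-fold above its higher WT library. With a mean under 1 FPKM it was not in the limma test. In the voom analysis of all genes with a read, Gbp7 had a log2 fold change of 2.29 ± 0.24 (adjusted p = 0.0193) and passed together with Igtp and Irgm1, where 0.665% of genes were called higher.

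**Figure D2:**
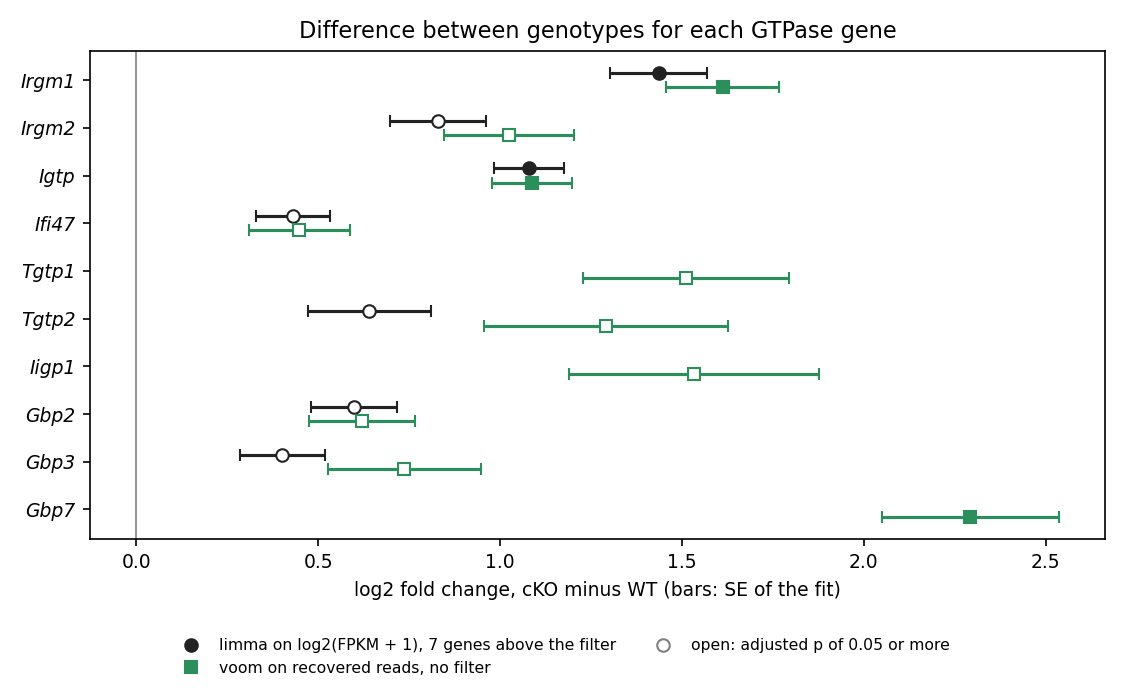
log2 fold change, cKO minus WT, of each interferon-inducible GTPase gene, with SE as bars, from limma on log2(FPKM + 1) and from voom on recovered reads without a filter, with filled symbols for an adjusted p under 0.05. Every estimate is above 0, and the low genes Gbp7, Iigp1 and Tgtp1 have a value from voom alone.

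Adding 1 to FPKM compresses the fold changes of the low genes. On the read scale of voom the log2 fold change was 0.74 for Gbp3 and 1.29 for Tgtp2, against 0.40 and 0.64 by limma, while Igtp had 1.09 against 1.08. With limma on all genes above 0, the call rule took in no member and 0.0% of genes, although all 10 members had an unadjusted p under 0.05, as did 1543 genes that were higher and 1469 that were lower. The voom analysis of the same 21807 genes called 3 members. The order of levels also differed between genotypes. In WT it ran Igtp, Gbp2, Ifi47, Irgm1, Irgm2, Gbp3, Tgtp2, Tgtp1, Gbp7 and Iigp1, and the ranges of Gbp3 and Tgtp2, and of Tgtp2 and Tgtp1, overlapped. In cKO Irgm1 stood above Ifi47 and both Tgtp copies above Gbp3, while the ranges of Gbp2 and Irgm1, of the Tgtp copies, and of Tgtp1 and Gbp3 overlapped.

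Within each genotype most members, but not all, differed between replicates in the same direction. WT replicate 2 was above WT replicate 1 for 7 of the 10 genes, and cKO replicate 2 was above cKO replicate 1 for 2 of them. The cKO libraries differed along GC content over all tested genes, with a Spearman correlation of 0.529 between GC and the difference of replicate 2 minus replicate 1, against -0.12 for the WT libraries. This correlation is across genes, which are not independent replicates. The 10 GTPase transcripts had a median GC content of 45.7% (39.3% to 49.5%), below the median of 49.6% over tested genes. After a GC correction, Igtp and Irgm1 still passed and Irgm2 passed as well. The correction raised the share of tested genes called higher from 0.814% to 2.40%.

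The genes lie in 3 loci plus Iigp1. On chromosome 3 (GRCm38), Gbp7 (142530342 to 142550149), Gbp3 (142560026 to 142573209) and Gbp2 (142620602 to 142638008) follow one another on the plus strand within 107.7 kb. A stretch of 235.0 kb on chromosome 11 holds Irgm1 (48861968 to 48871683), Tgtp1 (48985327 to 48994172) and Tgtp2 (49057194 to 49064206) on the minus strand and Ifi47 (49076587 to 49096974) on the plus strand. Igtp (58199556 to 58207591) and Irgm2 (58199618 to 58222782) lie further along chromosome 11 on the plus strand, where their annotated spans overlap by 7974 bases. They share 162 exon bases in GENCODE M21, which is 8.01% of the exon bases of Igtp and 4.39% of those of Irgm2. Counted as 1 feature, Igtp and Irgm2 had 832 and 795 reads in WT and 1858 and 1746 in cKO, and this sum rose with a log2 fold change of 1.02 ± 0.08 (limma, adjusted p = 0.0247).

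Other overlaps were smaller or nearly empty of reads. Gbp7 holds the pseudogene Gm43802, and Gbp2 the microRNA gene Mir6381 on the other strand, and both were listed at 0. All 637 exon bases of Gm43802 lie in exons of Gbp7 on the same strand, 11.3% of the exon bases of Gbp7. Because Gm43802 has no exon bases of its own, its value of 0 does not show whether Gbp7 lost reads there. Ifi47 shares 111 exon bases with the olfactory receptor gene Olfr56, which had 6 to 17 reads per library, and crosses the pseudogene Gm12188 on the other strand, with 2 to 12 reads. Tgtp1 shares 223 exon bases with Gm12185, another predicted family gene, with 6 and 4 reads in WT and 22 and 11 in cKO. Whether reads were counted by strand was not stated, so partners on opposite strands cannot be separated. Apart from the Tgtp copies, the share of 50-base stretches found in another gene was at most 12.7%, in Gbp7, and 0.379% in Irgm1.

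Genes around the loci were looked at next. Within 200 kb of a member, 21 genes outside the family were tested and limma called 0 of them, with a median log2 fold change of 0.04. They ran from -0.47 for Zfp692 (limma, adjusted p = 0.137) to 0.49 for Psme2b (adjusted p = 0.129), both chosen as the extremes. The 7 tested GTPases ran from 0.40 to 1.44. The difference between the neighbours and the GTPases was not tested.

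**Figure D3:**
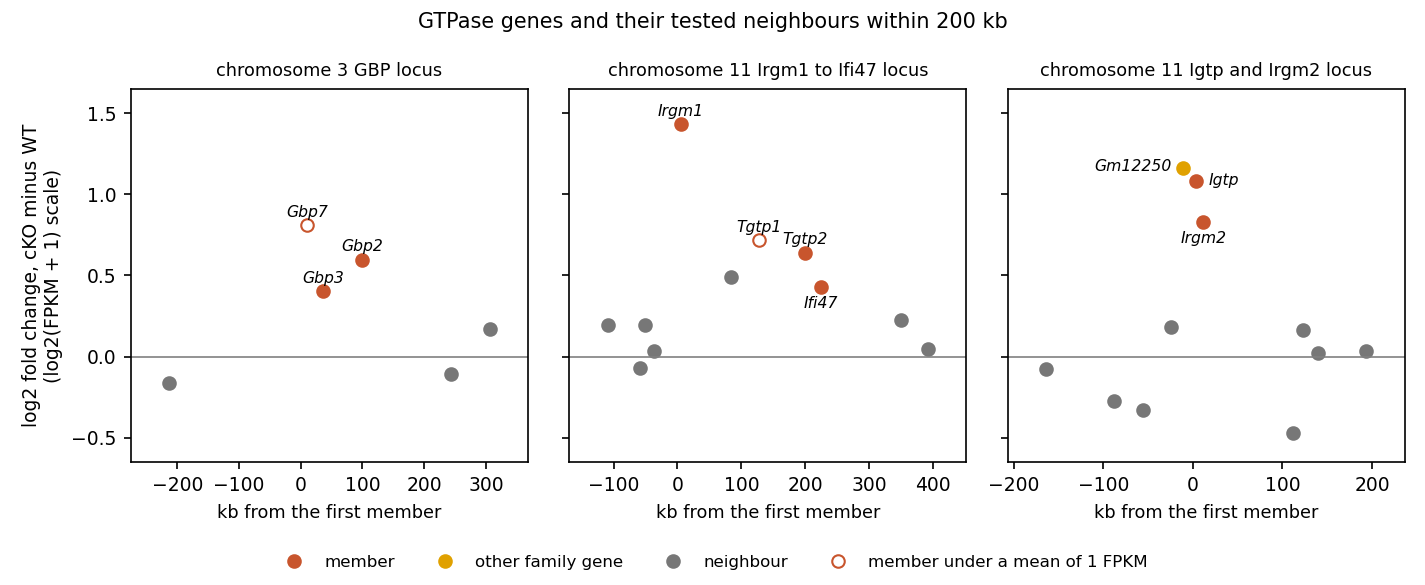
log2 fold change on the log2(FPKM + 1) scale (y axis) against distance from the first member of each locus in kb (x axis), for the members, the related gene Gm12250 and the tested neighbours within 200 kb. Neighbours lie between -0.47 and 0.49, and the members between 0.40 and 1.44, with open circles for the members under a mean of 1 FPKM.

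The start regions of these genes were searched for the binding motifs of the interferon pathway, since genes with a common inducer often share them. RefSeq promoter windows of 300 bases, from 250 before to 50 after the annotated start (GRCm38.p6), were searched for 9 of the 10 genes, with more than 1 start for Gbp3, and the window of Iigp1 was not analysed here. The gamma-activated site was searched as TTCNNNGAA and the core of the interferon-stimulated response element as GAAANNGAA, on both strands. A window could hold both, and overlapping matches were kept.

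The response element core was in a window of 8 of the 9 genes, all but Ifi47, against 8.56% of all 32851 mouse promoter windows. The gamma-activated site was in 5 (Igtp, Irgm2, Tgtp1, Tgtp2 and Gbp7), against 8.30% of all windows. Both were in these same 5, against 1.07% of all windows. A match describes letters in a window and is not a bound site, and no factor binding was measured here. The genes are also related by duplication, so their windows are not independent of one another.

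In Igtp, Irgm2, Tgtp1 and Tgtp2 both motifs stood side by side, the gamma-activated site first and the response element core after a gap of 2 bases. The stretches below are 60 bases each, 5′ to 3′ on the strand of the gene, from RefSeq (GRCm38.p6), with both motifs in capitals. They are shown because the order and the gap are the same in all 4 genes, on chr11:58199496-58199555 (plus strand), chr11:58214887-58214946 (plus), chr11:48992290-48992349 (minus) and chr11:49064249-49064308 (minus).
Igtp: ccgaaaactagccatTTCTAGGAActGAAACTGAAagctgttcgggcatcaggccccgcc
Irgm2: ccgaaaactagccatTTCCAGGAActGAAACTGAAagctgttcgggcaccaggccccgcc
Tgtp1: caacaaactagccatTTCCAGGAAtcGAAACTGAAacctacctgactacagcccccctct
Tgtp2: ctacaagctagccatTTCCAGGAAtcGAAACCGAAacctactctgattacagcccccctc

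Compared position by position without gaps, the Igtp and Irgm2 stretches were identical at 58 of 60 bases and those of the Tgtp copies at 44 of 60. After the core the Tgtp2 stretch holds an extra base that shifts the rest, so this count understates how alike the Tgtp copies are. Stretches across these pairs matched at 39 to 42, also without gaps. The gamma-activated site began 45 bases before the start of Igtp, 75 before that of Irgm2, 88 before that of Tgtp1 and 81 before that of Tgtp2. The Irgm2 stretch lies downstream of the Igtp gene body, at the start that RefSeq gives for Irgm2. This arrangement was noticed in the member windows and then counted, so the count is a description. It occurred in 8 of all 32851 windows (0.0244%), and the others belonged to Adar, Gm12185, Olfr382 and LOC115488470. Of these, Adar, an RNA-editing enzyme gene, had 13.7 and 13.6 FPKM in WT and 15.9 and 18.6 FPKM in cKO (log2 fold change 0.31; limma, adjusted p = 0.209), and Olfr382 was listed at 0. Gm12185, at 4 to 22 reads per library, is the gene that overlaps Tgtp1.

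Irgm1 and the guanylate-binding protein genes lacked this arrangement and carried the core alone or apart from the other motif. The stretches below show the cores nearest the start in capitals, again as 60 bases from RefSeq (GRCm38.p6) on the strand of the gene. They come from chr11:48871411-48871470 (minus strand), chr3:142620579-142620638 (plus), chr3:142559980-142560039 (plus) and chr3:142530258-142530317 (plus). In the Gbp genes the core reads on the opposite strand, and in Irgm1 and Gbp3 neighbouring cores overlap by a few bases.
Irgm1: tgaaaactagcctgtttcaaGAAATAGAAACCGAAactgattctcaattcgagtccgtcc
Gbp2: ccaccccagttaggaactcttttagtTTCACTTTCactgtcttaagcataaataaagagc
Gbp3: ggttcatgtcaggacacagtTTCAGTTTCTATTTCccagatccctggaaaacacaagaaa
Gbp7: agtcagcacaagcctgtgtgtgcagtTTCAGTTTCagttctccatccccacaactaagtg

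The cores ended 16 bases before the start in Irgm1, 50 in Gbp2, 30 in Gbp3 and 44 in Gbp7. Gbp7 also carried 2 gamma-activated sites further upstream, beginning 106 and 87 bases before the start. The genes that rose, Igtp and Irgm1, thus differed in motif layout, and Ifi47, with neither motif in its window, had the smallest ratio of means (1.396). With 9 genes no relation between layout and fold change was tested.

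**Figure D4:**
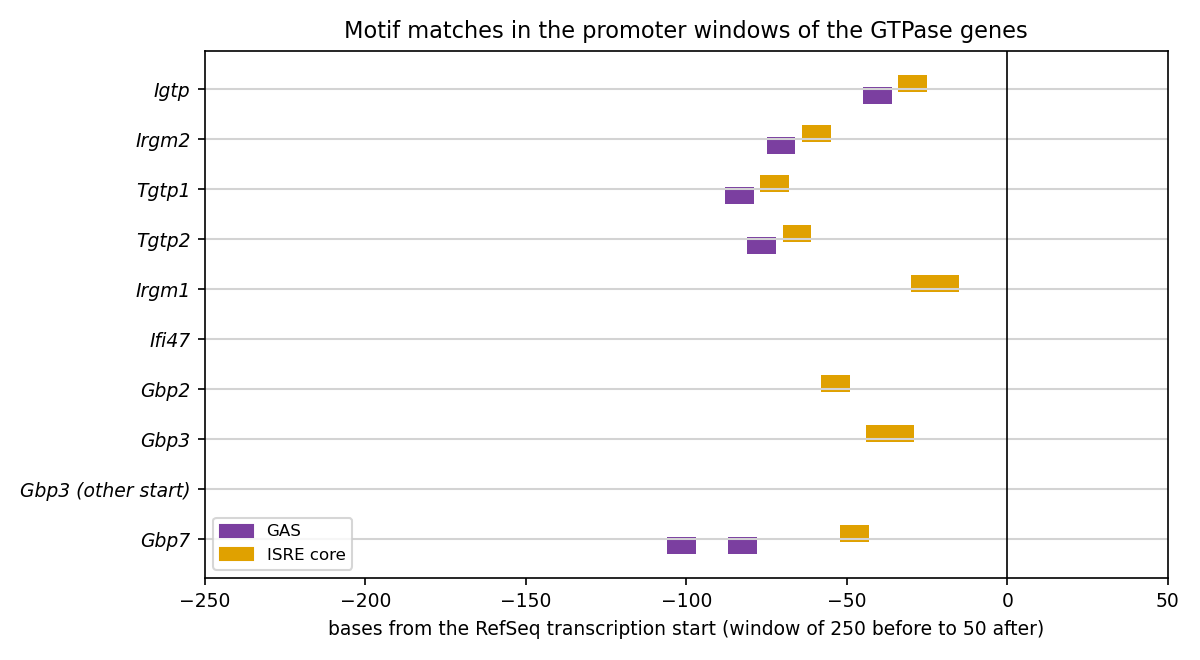
Position of motif matches (x axis, bases from the annotated start) in the RefSeq promoter windows of 9 GTPase genes, with gamma-activated sites (GAS) and response element cores (ISRE core) marked by colour. In Igtp, Irgm2, Tgtp1 and Tgtp2 the motifs are side by side, and the windows of Ifi47 and of the other Gbp3 start hold neither.

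Most relatives of the 10 genes were under 1 FPKM. Of 18 other guanylate-binding protein and immunity-related GTPase genes, 16 were above 0 in a library, and limma called 0 of the 2 tested. In 11 of the 18 both cKO libraries were above both WT libraries, against 21.4% of all genes above 0 in a library. Gm12250, a gene of the immunity-related GTPase family next to Igtp, is annotated in these data as a processed pseudogene. Gm12250 measured 0.562 and 1.27 FPKM in WT and 3.36 and 3.08 FPKM in cKO. Its log2 fold change of 1.16 ± 0.20 was above that of Igtp but did not pass (limma, adjusted p = 0.0696), and its WT mean was under 1 FPKM. The other tested gene, Irgq, had 3.71 and 4.39 FPKM on average (limma, adjusted p = 0.33). Gbp4 had 19 and 23 reads in WT and 64 and 63 in cKO, and Gbp6 had 1 and 6 against 23 and 21. Gbp4, Gbp6 and Irgq were chosen after their values were seen. A list of interferon-inducible GTPases of other families gave 5 genes (Mx1, Mx2, Gvin1, Gm4070 and Rnf213), each with a mean over the 4 libraries under 1 FPKM and with both cKO libraries above both WT libraries. Of these, Rnf213 is a giant ubiquitin ligase with ATPase activity and not a GTPase. Rnf213 had 201 and 170 reads in WT and 439 and 453 in cKO and passed by voom on all genes with a read.

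Dynamin-related GTPases that are not interferon targets gave a contrast within the same protein superfamily. Of 10 such genes, 7 were tested, limma called 0, and the median log2 fold change was 0.00 beside -0.00 over all tested genes. Atl2, an atlastin that shapes the endoplasmic reticulum, differed most at -0.29 (limma, adjusted p = 0.163). The difference between these genes and the members was not tested.

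Limma called none of the ligand and receptor genes upstream of the GTPases with all libraries and all tested genes. Of 10 interferon genes, Ifng was the only one tested. It measured 9.23 and 7.92 FPKM in WT and 20.8 and 14.3 FPKM in cKO, with a log2 fold change of 0.93 ± 0.19 (limma, adjusted p = 0.0839). Ifng passed by voom (adjusted p = 0.0418), where 2.52% of tested genes were called higher. Among protein-coding genes alone it passed as well (limma, adjusted p = 0.0403), where 2.81% were called higher. Its cKO libraries differed from each other more than those of Igtp or Irgm1, and the anti-IFN-γ antibody was in the polarization medium of all libraries. The other 9 interferon genes had at most 4 reads in any library, too few for a direction. Limma called 0 of the 7 receptor and kinase genes, which had a median log2 fold change of 0.17. Jak2, the kinase of the IFN-γ receptor, differed most at 0.47 (limma, adjusted p = 0.0911).

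Among 8 interferon transcription factors, all tested, limma called 2 higher and 0 lower, with a median log2 fold change of 0.50. Irf7, the amplifier of type I interferon production, rose from a mean of 0.760 to 2.83 FPKM (log2 fold change 1.12 ± 0.12; limma, adjusted p = 0.0356), with a WT mean under 1 FPKM. Stat2, of the type I interferon complex, rose from 3.83 to 6.81 FPKM (0.69 ± 0.09; limma, adjusted p = 0.0491). Of the 8 factors, limma called only 1 with a pseudocount of 0.1, TPM scaling, quantile normalization, robust variance or variance without trend. It called 0 without a filter, and 4 among protein-coding genes alone or after the GC correction. Leaving out either WT library ended both calls, with adjusted p of 0.0535 and 0.0815 for Irf7 and 0.216 and 0.230 for Stat2 (limma). Irf1, which drives many guanylate-binding protein genes and was chosen after its values were seen, measured 6.91 and 5.99 FPKM in WT and 7.66 and 8.78 FPKM in cKO (limma, adjusted p = 0.231).

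Of 6 inhibitors of interferon signalling, all tested, limma called 1, Usp18, and their median log2 fold change was -0.06. Usp18, a protease that removes ISG15 and dampens type I interferon receptors, measured 0.220 and 0.281 FPKM in WT and 2.01 and 2.01 FPKM in cKO. Its WT mean was under 1 FPKM, so it entered the test only through its cKO level. Usp18 rose with a log2 fold change of 1.27 ± 0.12 (limma, adjusted p = 0.0298). This call was lost without cKO replicate 1, under quantile normalization and by limma without a filter, and it held by voom (adjusted p = 0.00562).

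Other interferon targets were read beside the GTPases. Of 18 type I interferon response genes, 7 were tested, limma called 4 higher, and the median log2 fold change was 1.32. That median is the value of Xaf1, whose WT mean was under 1 FPKM and which entered the test only through its cKO level. Ifih1, an RNA sensor, rose by 1.81 on the log2 scale (limma, adjusted p = 0.0166), Oas3, which makes 2-5A from double-stranded RNA, by 1.80 (adjusted p = 0.0206) and Isg15, a ubiquitin-like modifier, by 1.53 (adjusted p = 0.0206). These 3 calls held without each library in turn, and Zbp1, a nucleic acid sensor, was the other gene called. Of 15 IFN-γ response genes, 10 were tested, limma called 2 higher, and the median was 0.48. Cd274, which encodes PD-L1, rose by 1.07 (limma, adjusted p = 0.0342) and Ly6a, which encodes Sca-1, by 0.82 (adjusted p = 0.0401). Without WT replicate 1 or 2 the adjusted p was 0.0875 or 0.157 for Cd274 and 0.291 or 0.318 for Ly6a (limma).

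Genes that work with the GTPases were read next. Limma called 0 of 15 genes for LC3 conjugation and GTPase targeting, all tested, with a median log2 fold change of 0.17, and Trim21, a ubiquitin ligase, differed most at 0.40 (limma, adjusted p = 0.158). Of 7 inflammasome genes that act with guanylate-binding proteins, 5 were tested and 0 called, with a median of 0.27. Casp4, the caspase that senses lipopolysaccharide, differed most at 0.58 (limma, adjusted p = 0.178). Both cKO libraries were above both WT libraries for 10 of the 15 targeting genes and for 4 of the 7 inflammasome genes. Among tested genes 27.2% had this order, and among all genes above 0 in a library 21.4%. Leaving out cKO replicate 2 brought limma calls in both lists, and many more calls over all tested genes as well. With all libraries, no pathway list held a gene that limma called lower.

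**Figure D5:**
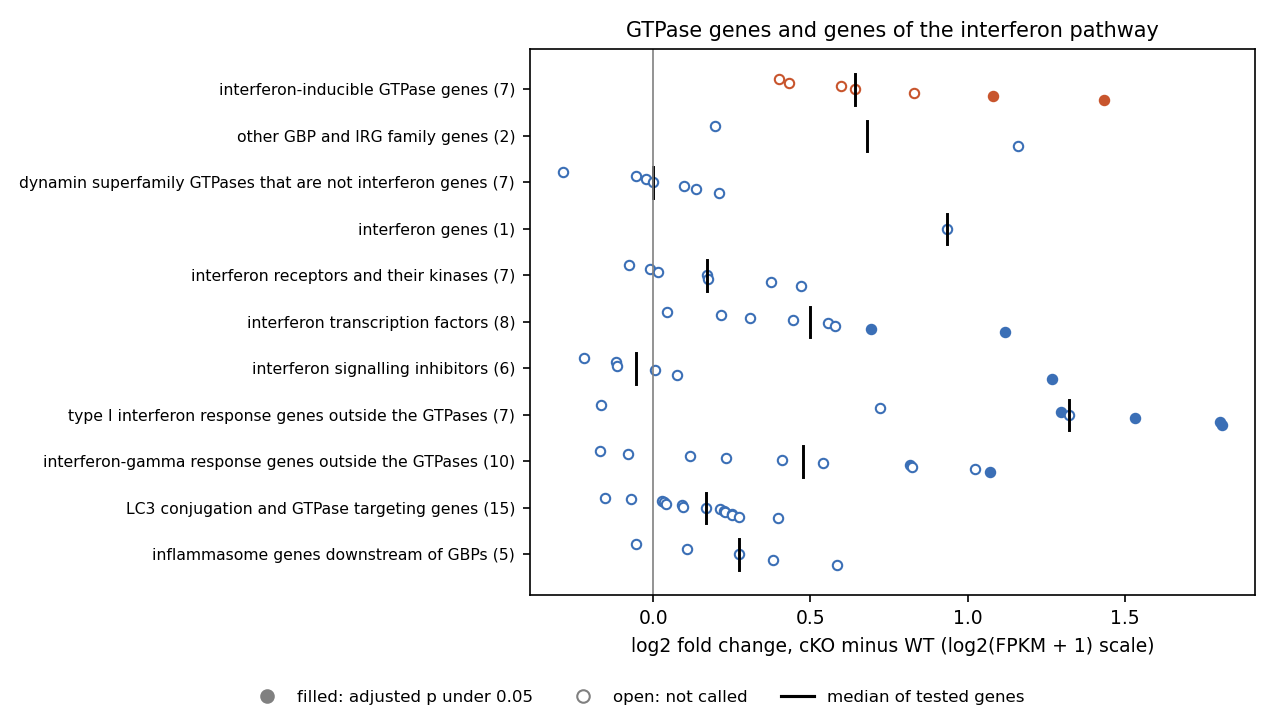
log2 fold change on the log2(FPKM + 1) scale (x axis) of every tested gene in the GTPase family and its pathway lists (y axis, number of tested genes in brackets), with limma calls marked and a line at each median. The 7 tested interferon-inducible GTPases lie between 0.40 and 1.44, and the dynamin-related genes outside the interferon system centre on 0.00.

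The genes whose profile over the 4 libraries lay nearest the mean profile of the 7 tested members were found by Euclidean distance of centred log2(FPKM + 1) values. Outside the lists they were the non-coding RNA Neat1 (distance 0.0645), Sp100, a nuclear body protein gene (0.0830), Dsp, which encodes desmoplakin (0.0915), Glipr2 (0.0973) and the small RNA gene Gm25945 (0.0988). Neat1 measured 1.12 and 1.28 FPKM in WT and 2.86 and 2.59 FPKM in cKO, and Sp100 measured 3.17 and 3.45 FPKM in WT and 6.54 and 5.91 FPKM in cKO. All 5 were nearer to this profile than any member, whose distances ran from 0.116 for Irgm2 to 0.670 for Irgm1. They were picked for the smallest distance among all tested genes outside the lists, so this order carries no weight. Dsp and Gm25945 had WT means of 0.879 and 0.960 FPKM. Like Gbp3 and Tgtp2 in the profile, they entered the test only through their cKO level. Irgm1, the farthest, had the largest log2 fold change of the 7.

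Markers of cell types were read beside the GTPases. All 10 T cell and Th17 markers were detected, including Cd4, Cd3e, Il17a and Il17f. Limma called 0 of them, and voom without a filter called 1 higher and 2 lower. They summed to 4086 to 4419 FPKM in WT and 3244 to 3380 FPKM in cKO. Macrophage and dendritic cell markers summed to 2.31 to 2.60 FPKM in WT and 1.72 to 2.18 FPKM in cKO, with Siglech at 0. Of the 12 gene IDs in that list, 3 had both cKO libraries above both WT libraries and 2 below. Of all 21807 genes above 0 in a library, 4660 (21.4%) were above and 4639 below in this way, so these counts show no direction. Cd68 and Cd14 made up most of the sum in WT, and the remaining markers had at most 30 reads in a library. B cell markers summed to 0.374 to 0.633 FPKM in WT and 0.547 to 0.755 FPKM in cKO, and NK cell markers to at most 0.105 FPKM, with Klrb1c and Ncr1 at 0. CD8 T cell markers summed to 7.61 to 8.24 FPKM in WT and 9.28 to 10.2 FPKM in cKO. Cd8b1 made up most of this sum, while Cd8a averaged 0.439 FPKM in WT and 0.299 FPKM in cKO, with overlapping libraries. Limma tested 1 CD8 T cell marker, 1 macrophage and dendritic cell marker and 0 B cell or NK cell markers. It called 0 of those tested. The part of any of these cell types in the result was not tested.

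The labels could not be checked against the targeted gene, since they do not name it. Ppp2ca, the main catalytic subunit gene of PP2A, measured 42.2 and 50.1 FPKM in WT and 41.8 and 34.5 FPKM in cKO (limma, adjusted p = 0.36). Both cKO libraries were below both WT libraries, but the difference did not pass, so the direction of every GTPase difference rests on the labels. Libraries held 18517487 to 20387948 gene-assigned reads.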

How the data were processed

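RNA was sequenced from 4 libraries of in vitro polarized Th17 cells, 2 per genotype. The deposited table gives FPKM per gene, made by the authors, beside each gene's length. Per the submitters' processing notes, reads were counted by featureCounts 1.5.0-p3, and GRCm38 and mm10 are the builds named. Not given in the sources used here are the aligner, annotation release, strand setting and FPKM tool. FPKM times length gave whole reads for 100% of values above 0, within 0.05 read, summing to 19347055 and 18517487 in WT and 20387948 and 19521977 in cKO. Reads carry no molecular identifiers, so counts give counting error only.

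cKO was compared with WT by limma 3.58.1 (R 4.3.3) on log2(FPKM + 1), with a variance trend and no block, for the 10562 genes whose mean reached 1 FPKM. Benjamini-Hochberg adjustment ran over all tested genes, two-sided, at 0.05. A fold change on this scale understates that of low genes. Every adjusted p is from limma or voom. The procedure was also run on simulated reads with equal scatter in all libraries and no GC effect. That run therefore says nothing about the GC-linked difference between the cKO libraries. Overlaps and shared 50-base stretches came from GENCODE M21, which held 99.7% of the gene IDs, 95.2% of these at the same position. Promoter sequences are RefSeq's. They were matched by symbol, and those of 9 of the 10 members were analysed.

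Named genes were all members, and from each pathway list up to 3 called genes per direction with the largest fold change, or the most changed tested gene where none was called, plus the 5 genes nearest in profile and the neighbours within 200 kb. Gbp4, Gbp6, Irgq, Rnf213, Xaf1, Irf1 and Zbp1 were named outside this rule, after their values were seen. Also outside it were Ppp2ca, Mx1, Mx2, Gvin1, Gm4070, the cell type markers, the genes that overlap members and those sharing the motif arrangement, such as Adar. Members and lists were chosen with earlier results of these data known. Alternatives were other pseudocounts, filters, scalings and variance settings, voom, a replicate block, leaving out each library, protein-coding genes only, summed copies and a GC correction.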

Additional observations from a re-analysis of the deposited data

How the results depend on the processing

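For the members, 126 of 137 alternative values kept their direction and side of the threshold, 7 passed newly, 4 no longer passed and 0 reversed. Both Igtp and Irgm1 were called under every alternative except limma without a filter and, for Igtp, the omission of either WT library; with summed copies, Igtp was counted together with Irgm2. No member was called lower in any setting.

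Against 86 genes higher and 27 lower, limma without a filter called 0, 0 and 0 members, although 1543 genes were higher and 1469 lower at an unadjusted p under 0.05, and voom without a filter, chosen after seeing the data, called 145 and 110. TPM scaling called 52 higher and a pseudocount of 0.1 called 15 lower. voom called 266 and 352, protein-coding genes alone gave 259 and 241 with 4 members, and the GC correction gave 253 and 257. The replicate block called 154 and 73, with 2 members, and with the GC correction 161 and 99. Leaving out a library gave 49 (without WT replicate 2) to 1390 (without cKO replicate 2) higher, 6 to 1614 lower and 1 to 4 members. The share of tested genes called higher was then 13.2% without cKO replicate 2, where 4 members were called. The cause was not tested.

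Replicate numbers pair nothing in the labels, and the deviations of same-numbered libraries had a correlation of -0.093 over 10562 genes. With 2 libraries per genotype, Iigp1, Tgtp1 and Tgtp2, at 10 to 108 reads, are the least precise.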
